A study of Homo sapiens with 5 samples.

Results

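Cadherins and melanoma adhesion molecules were represented by 5 genes, CDH1, CDH2, CD44, MCAM and L1CAM. Every probe annotated with 1 of these genes was taken, which gave 8 of 3048 probes and 5 of 2078 named genes. CDH1 had 2 probes and CD44 had 3, while CDH2, MCAM and L1CAM had 1 each. The cells were SK-MEL28, an established human melanoma line, measured on 2-colour spotted oligonucleotide arrays. On 2 arrays the treated cells had received cisplatin, a DNA-crosslinking platinum drug, together with electroporation, and on 3 arrays cisplatin without electric pulses. On each of the 5 arrays untreated cells of the same line were hybridised beside the treated ones, with Cy5 for treated and Cy3 for untreated RNA. Electroporation, which lets the drug through the membrane, was given to cells suspended after trypsin, as 8 electric pulses with a field of 1300 V/cm, each lasting 100 µs and repeated at 1 Hz. Neither the cisplatin dose of the RNA samples nor the time until RNA extraction is stated in the labels. All cells were detached with trypsin before RNA extraction. No electroporation without drug was analysed here. The study used these arrays to look for cancer and cell death genes that respond to the drug with or without pulses, and its title concerns the metastatic potential of the cells.

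Cadherins are calcium-dependent receptors that bind the same kind of cadherin on a neighbouring cell and connect it to actin through catenins. CDH1 (E-cadherin) ties melanocytes to keratinocytes, and its replacement by CDH2 (N-cadherin) is a known step of melanoma progression. CD44 is a receptor for hyaluronan that is linked to the cytoskeleton by ezrin, radixin and moesin. MCAM (CD146) and L1CAM are immunoglobulin family receptors that were described early as markers of advanced melanoma.

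Each array carried 12788 spots, 4 of them for each of the 8 probes. Between 1216 and 1824 probes stood above background in treated cells and between 1535 and 1843 in untreated cells. A probe met this criterion in a channel when a share of 0.5 or more of its spots lay over 2 standard deviations above the local background. Across probes, the log2 ratios of any pair of arrays correlated with r between 0.18 and 0.61 over the 1461 probes above background in at least 1 channel on every array. Melanocyte lineage markers were above background in untreated cells on every array for 6 of 6 measured genes, among them MLANA, TYR and MITF. The same held for 3 of 4 epithelial markers (KRT5, KRT14 and KRT19), 1 of 1 fibroblast marker, 3 of 5 endothelial markers and 2 of 3 leukocyte markers. Signal above background on these arrays thus also appeared for markers of other lineages, and whether a probe reads its named gene alone was not tested. On the second electroporation array the last listed spot of a probe differed over 2-fold from the median of its other spots, in the untreated channel, for 41.6% of these 1461 probes. On the other arrays this share lay between 1.64% and 5.2%. Values are given below with and without those spots for CDH2, L1CAM and CD44 probes 1 and 3. The electroporation mean moved from -0.153 to -0.158 for CDH1 probe 1 and from 0.147 to 0.145 for CD44 probe 2. Whether the arrays of a treatment hold separate cultures is not stated, so the p-values cover the spread from array to array alone, and that spread may be technical. Dyes were not exchanged on any array, so a dye preference of a probe cannot be told apart from a change against untreated cells. The number of arrays limits the precision.

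**Figure D1:**
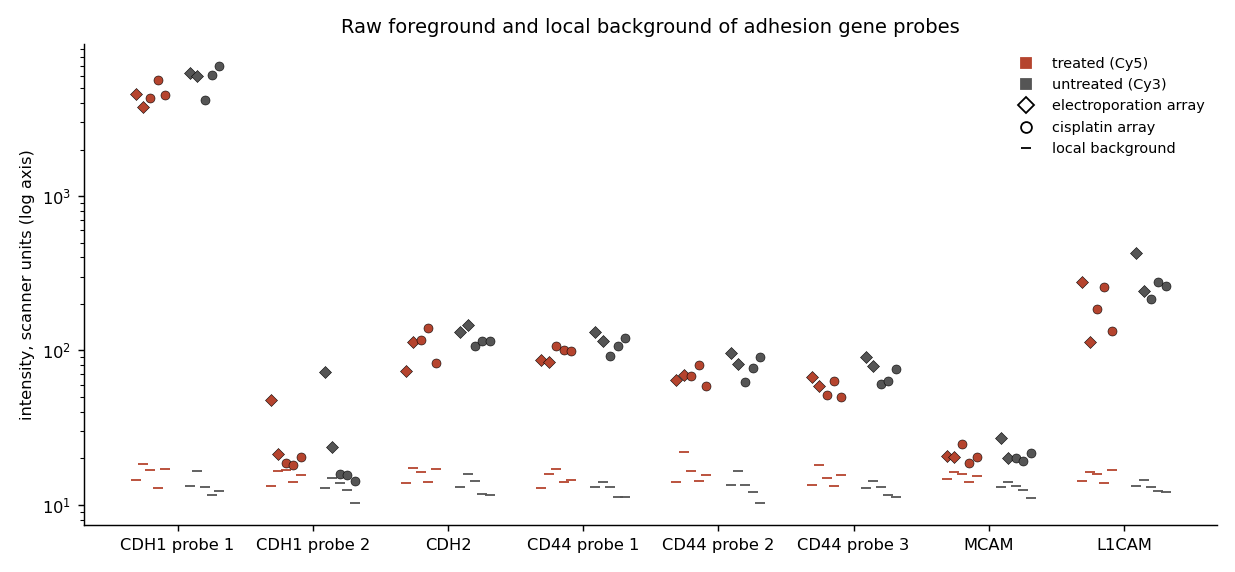
Mean raw foreground intensity of each probe (scanner units, log axis) on each array, with treated cells (Cy5) left of untreated cells (Cy3), diamonds for electroporation arrays, circles for cisplatin arrays and short bars for the local background. CDH1 probe 1 lies between 3752 and 6980 in both channels, while MCAM and all but 1 array of CDH1 probe 2 lie close to the local background.

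The raw intensities divided the 8 probes into 6 above background in both channels on every array and 2 that were not. The 2 CDH1 probes, both annotated to NM_004360, differed in this respect. CDH1 probe 1 (VM_H300019607) had 20 of 20 spots above background in treated and in untreated cells. CDH1 probe 2 (VM_H200014638) had 1 of 20 in each channel, the last listed spot of the second electroporation array. That spot read 150 in treated and 244 in untreated cells, while the other spots of the probe on that array read 11 to 17 in treated and 13 to 16 in untreated cells. MCAM (VM_H300005823) had 0 of 20 spots above background in either channel. Its foreground lay at 1.26 to 1.57 times the local background in treated cells and at 1.43 to 2.1 times in untreated cells. For MCAM and CDH1 probe 2 no ratio is given, since neither treated nor untreated cells stood well above background. All results for CDH1 therefore come from probe 1. In treated cells probe 1 stood at 206 to 445 times the local background and probe 2 at 1.12 to 3.62 times. Which of the 2 probes reads CDH1 was not tested, so the values below are those of probe 1 alone. MCAM, a laminin-binding receptor of melanoma cells, was not detectable at this signal in any group.

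**Figure D2:**
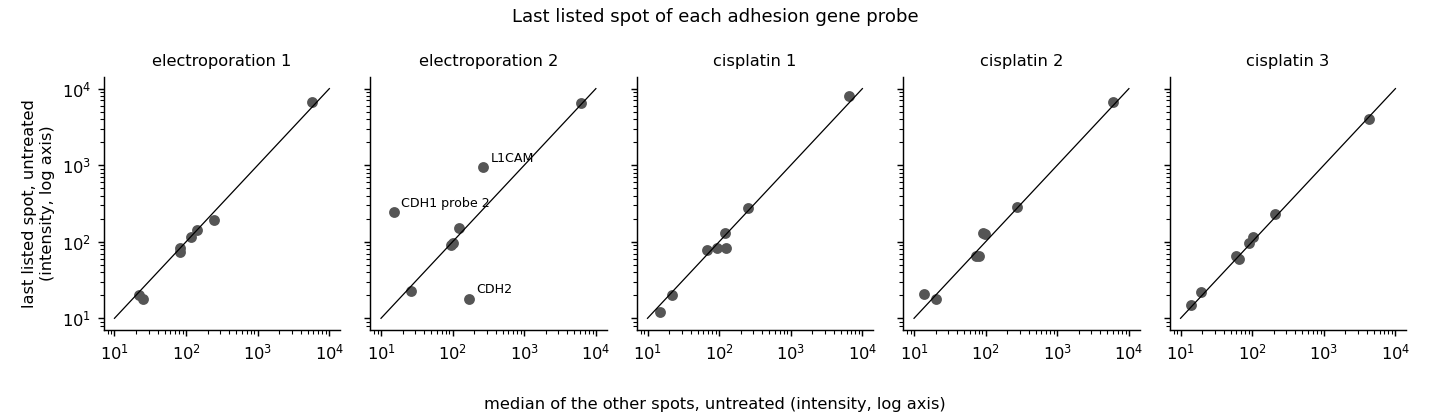
Untreated foreground intensity of the last listed spot of each of the 8 probes against the median of its other spots, both on log axes, for each array; the line marks equal values. On the second electroporation array L1CAM (947), CDH1 probe 2 (244) and CDH2 (18) leave the line by over 2-fold, and no probe does so on the other arrays.

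CDH1, taken from its bright probe, had a treated to untreated log2 ratio below 0 on 5 of 5 arrays after loess normalization. With median centring this held on 4 of 5, and the third cisplatin array read 0.029. On the electroporation arrays its raw foreground was 3752 and 4600 in treated cells, against 5958 and 6317 in untreated cells. On the cisplatin arrays it was 4530, 5677 and 4316 in treated cells, against 6980, 6103 and 4220 in untreated cells. Before normalization the treated signal was thus the lower one on 4 of 5 arrays. On the same 4 arrays the median log2 ratio of the 1461 probes above background was below 0, at -0.41 and -0.46 with electroporation and -0.37 and -0.055 with cisplatin, and on the third cisplatin array it was 0.0027. After loess normalization within each array, the log2 ratios were -0.22 and -0.084 with electroporation and -0.15, -0.080 and -0.024 with cisplatin, so that the groups overlapped. On the first electroporation array the 4 spots of CDH1 spread widely, with log2 ratios between -0.70 and 0.26. The mean log2 ratio to untreated cells was -0.15 with electroporation (standard error, SE, 0.052, 95% confidence interval -0.28 to -0.022, n = 2). With cisplatin it was -0.084 (SE 0.043, interval -0.19 to 0.023, n = 3). Neither passed limma's test over all 3048 probes, with adjusted p of 0.447 for electroporation and 0.581 for cisplatin. RNA came from whole cultures, in which fewer cells carrying a transcript and less of it per cell cannot be told apart. The difference between the treatments was -0.069 (SE 0.068, interval -0.24 to 0.10), with a limma adjusted p of 0.994. As normalized log2 levels, CDH1 averaged 12.1 ± 0.088 with electroporation (SD, n = 2), 12.4 ± 0.10 with cisplatin (SD, n = 3) and 12.4 ± 0.15 in untreated cells (SD, n = 5). Untreated levels also differed between the arrays, at 12.27 ± 0.19 on the electroporation arrays (SD, n = 2) and 12.46 ± 0.069 on the cisplatin arrays (SD, n = 3).

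CDH2, the neural cadherin, had no uniform direction over the arrays. With median centring its mean with electroporation was -0.18, where the median of the 1461 probes above background stood at -0.23, so that CDH2 lay 0.055 above that median. Its raw foreground was 113.5 and 73.25 in electroporated cells, against 145.5 and 132 in untreated cells on the same arrays. In cisplatin-treated cells it was 83, 139.8 and 116, against 115, 115 and 107 in untreated cells. The log2 ratios were 0.21 and -0.078 with electroporation and 0.033, 0.29 and 0.077 with cisplatin, and the cisplatin values lay within the electroporation range except for the highest. The means were 0.067 with electroporation (SE 0.092, interval -0.17 to 0.30) and 0.13 with cisplatin (SE 0.076, interval -0.055 to 0.32). Limma's adjusted p was 0.868 for electroporation and 0.628 for cisplatin. The last listed spot of CDH2 on the second electroporation array read 14 in treated and 18 in untreated cells, close to background. Without it the ratio of that array was -0.096 in place of -0.078, and the group mean was 0.057 (SE 0.094). CDH2 levels averaged 7.26 ± 0.48 with electroporation (SD, n = 2), 7.32 ± 0.17 with cisplatin (SD, n = 3) and 7.19 ± 0.16 in untreated cells (SD, n = 5), and all 3 ranges overlapped. The CDH2 ratio lay above the CDH1 ratio on 5 of 5 arrays, by 0.43 and 0.0058 with electroporation and by 0.18, 0.37 and 0.10 with cisplatin. This pairing was chosen after its values were seen, and with median centring in place of loess the second electroporation array turned to -0.061. Neither cadherin passed the test in any comparison.

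**Figure D3:**
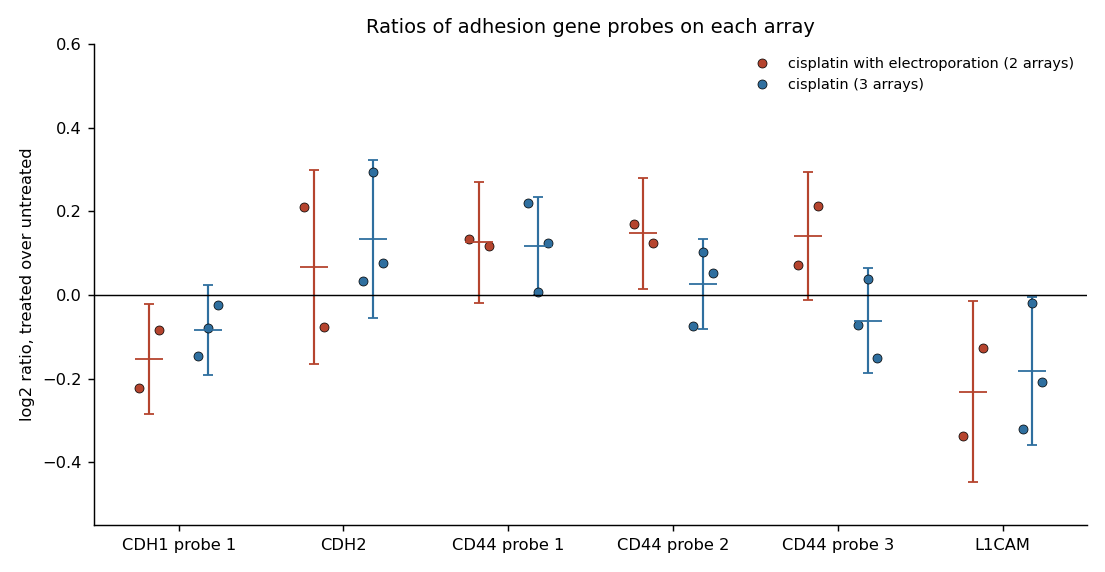
Log2 ratio of treated over untreated cells (y axis) for the 6 probes above background, with 1 point per array, the group mean as a bar and its 95% confidence interval from limma, electroporation left of cisplatin for each probe. L1CAM and CDH1 probe 1 lie below 0 on all 5 arrays and CD44 probe 1 above 0 on all 5, while no mean passes the test over 3048 probes.

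CD44, the hyaluronan receptor, had positive mean ratios on all 3 probes with electroporation, which turned negative with median centring but stayed above the median probe there, while with cisplatin its probes disagreed in sign. The 3 probes are annotated to the same transcript, NM_000610, and are numbered here by brightness. Probe 1 (VM_H300022030) had raw foregrounds of 84.5 and 86 in electroporated cells, against 114 and 132.5 in untreated cells. In cisplatin-treated cells it had 99.25, 101 and 107, against 119.5, 107 and 91.5 in untreated cells. Its log2 ratios were 0.13 and 0.12 with electroporation and 0.22, 0.0059 and 0.12 with cisplatin. All 5 values were above 0, though with median centring only the third cisplatin array was, at 0.13, and the electroporation values lay inside the cisplatin range. Their means were 0.13 (SE 0.057, interval -0.018 to 0.27) with electroporation and 0.12 (SE 0.047, interval -0.00065 to 0.23) with cisplatin, with a limma adjusted p of 0.531 for electroporation and 0.456 for cisplatin. Without its last listed spot, the second electroporation array read 0.16 and the electroporation mean was 0.15 (SE 0.057, limma adjusted p = 0.462).

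The dimmer CD44 probes had lower means with cisplatin than the brightest one, though both read higher than it on the second cisplatin array. Probe 2 (VM_H300022654) had log2 ratios of 0.17 and 0.13 with electroporation and of -0.075, 0.10 and 0.053 with cisplatin. Its mean ratio to untreated cells was 0.15 with electroporation (SE 0.053, interval 0.015 to 0.28, limma adjusted p = 0.459) and 0.027 with cisplatin (SE 0.043, interval -0.081 to 0.13, adjusted p = 0.909). Probe 3 (VM_H300019814) had 0.070 and 0.21 with electroporation and -0.072, 0.039 and -0.15 with cisplatin, with means of 0.14 (SE 0.061, adjusted p = 0.516 by limma) with electroporation and -0.062 (SE 0.050, adjusted p = 0.737) with cisplatin. On probe 2 each electroporation array lay above each cisplatin array, as on 6.3% of the 1461 probes above background. On probe 3 this held with all spots but not without the first listed spot of the second cisplatin array, which read 21 in treated and 25 in untreated cells. Without that spot, left out after seeing the data, the array read 0.080 in place of 0.039, above the first electroporation array, and the difference between treatments was 0.19 (SE 0.088, limma adjusted p = 0.994). The difference between treatments was 0.20 for probe 3 (SE 0.079, interval 0.0039 to 0.40), 0.12 for probe 2 (SE 0.068, interval -0.050 to 0.29) and 0.0087 for probe 1 (SE 0.074, interval -0.18 to 0.19). None passed, each with a limma adjusted p of 0.994. Without the last listed spot of the second electroporation array, probe 3 read 0.16 there in place of 0.21. Its electroporation mean was then 0.12 (SE 0.057) and its difference between treatments 0.18 (SE 0.073, limma adjusted p = 0.9975). Raw foregrounds of probes 2 and 3 lay between 49.75 and 81 in treated cells and between 60.25 and 95.75 in untreated cells, over local backgrounds of 13.25 to 22 in treated and 10.25 to 16.5 in untreated cells. At such signals the added offset of 50 draws ratios toward 0. Without the offset, probe 3 read 0.26 (SE 0.16) with electroporation and -0.15 (SE 0.13) with cisplatin, and probe 2 read 0.26 (SE 0.15) with electroporation and 0.054 (SE 0.12) with cisplatin. The positive CD44 ratios with electroporation also rest on the loess step: with median centring the 3 probes read -0.15, -0.075 and -0.075. Median centring moved the median of the 1461 probes above background to -0.23 with electroporation, and relative to that median the 3 probes stood at 0.078, 0.16 and 0.16.

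The CD44 levels per channel were close together. They were taken after the loess step. With median centring the electroporation ratios of probes 1 to 3 were -0.15, -0.075 and -0.075, or 0.078, 0.16 and 0.16 relative to the median of the probes above background. Probe 1 averaged 7.24 ± 0.025 on the log2 scale with electroporation (SD, n = 2), 7.25 ± 0.12 with cisplatin (SD, n = 3) and 7.13 ± 0.029 in untreated cells (SD, n = 5). The electroporation levels were 7.22 and 7.26 and the untreated levels 7.10 to 7.175, and the cisplatin range of 7.11 to 7.34 overlapped both. For how many of all probes such levels lie apart was not counted. Probe 2 averaged 6.92 ± 0.0089 with electroporation (SD, n = 2), 6.86 ± 0.053 with cisplatin (SD, n = 3) and 6.81 ± 0.063 in untreated cells (SD, n = 5), with a highest untreated level of 6.91. Probe 3 averaged 6.89 ± 0.095 with electroporation (SD, n = 2), 6.65 ± 0.055 with cisplatin (SD, n = 3) and 6.72 ± 0.051 in untreated cells (SD, n = 5). Its electroporation levels were 6.83 and 6.96, and without the deviating spot the second cisplatin array read 6.88 in treated and 6.80 in untreated cells.

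L1CAM, a homophilic receptor first known from neurons, had negative ratios to untreated cells on 5 of 5 arrays, with loess and with median centring. Its raw foreground was 114 and 276 in electroporated cells, against 241.5 and 427 in untreated cells. In cisplatin-treated cells it was 133, 256 and 185, against 262.5, 277.5 and 216 in untreated cells. The treated value was the lower one on 5 of 5 arrays before normalization, when the median log2 ratio of the 1461 probes was itself below 0 on 4 of 5. The log2 ratios were -0.34 and -0.13 with electroporation and -0.32, -0.019 and -0.21 with cisplatin, and the groups overlapped. Their means were -0.23 (SE 0.086, interval -0.45 to -0.015, n = 2), or 0.852-fold, with electroporation and -0.18 (SE 0.070, interval -0.36 to -0.0056, n = 3), or 0.881-fold, with cisplatin. Limma's adjusted p was 0.463 with electroporation and 0.433 with cisplatin, so neither passed. Leaving out 1 cisplatin array put the L1CAM mean with cisplatin at -0.11 without the first (limma adjusted p = 0.800), -0.26 without the second (adjusted p = 0.598) and -0.17 without the third (adjusted p = 0.766).

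The second electroporation array held a deviating L1CAM spot. Its last listed spot read 725 in treated and 947 in untreated cells, while the other 3 read 109 to 138 in treated and 206 to 290 in untreated cells. That spot had a log2 ratio of 0.17. Without it the ratio of the array was -0.22 and the electroporation mean -0.28 (SE 0.077, limma adjusted p = 0.338). The difference between treatments was -0.049 for L1CAM with all spots (SE 0.11, interval -0.33 to 0.23). L1CAM levels averaged 7.87 ± 0.31 with electroporation (SD, n = 2), 7.91 ± 0.24 with cisplatin (SD, n = 3) and 8.10 ± 0.12 in untreated cells (SD, n = 5), and all ranges overlapped. In treated cells the first array of each treatment read lowest, at 7.64 on both.

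Across the 3 comparisons the limma test passed 0 of 8 probes at an adjusted p under 0.05, as it passed 0 of 3048 probes (0%) in each. At an unadjusted p under 0.05 it took 3 of 8 with electroporation, CDH1 probe 1 and L1CAM lower and CD44 probe 2 higher, where 9.97% of all probes did so (6.99% lower and 2.99% higher). With cisplatin it took 1 of 8, L1CAM on the lower side, where 11.1% of all probes did so (6.1% lower and 4.95% higher). For the difference between treatments it took 1 of 8, CD44 probe 3 on the higher side, where 3.51% of all probes did so (2.23% lower and 1.28% higher). Among the 1461 probes above background these shares were 16.6% for electroporation, 20.3% for cisplatin and 6.37% for the difference. Without the last listed spots of the second electroporation array the test took 4 of 8 with electroporation, 2 of 8 with cisplatin and 0 of 8 for the difference. There it took 310, 335 and 112 of all 3048 probes. With no offset it took 0 of 8 in each, where it took 276, 285 and 136 of all probes. Leaving out cisplatin array 1, 2 or 3 gave, in this order, 4, 3 and 1 of 8 with electroporation, where 308, 239 and 274 of all probes did so. With cisplatin these counts were 0, 2 and 0 of 8, where 260, 232 and 248 of all probes did so. For the difference they were 0, 1 and 0 of 8, where 136, 88 and 82 of all probes did so. Leaving out the deviating spot of CD44 probe 3 gave 0 of 8 for the difference. Of the 6 probes above background, 2 were negative on all 5 arrays and 1 was positive on all 5, where 13.3% and 7.87% of the 1461 probes were. The ratio exceeded its array's median over the 1461 probes in 16 of 30 pairs of probe and array with loess and in 17 of 30 with median centring. No 95% interval of the 6 probes for either treatment against untreated cells went below -0.45 or above 0.32. With plain background subtraction, which does not draw ratios toward 0, the outermost bounds were -0.73 and 0.73, and with median centring -0.93 and 0.25. A 2-fold change thus lay outside the intervals of all 6 probes under these settings. The intervals do not cover a dye preference, and the spread between arrays that they measure may be technical.

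**Figure D4:**
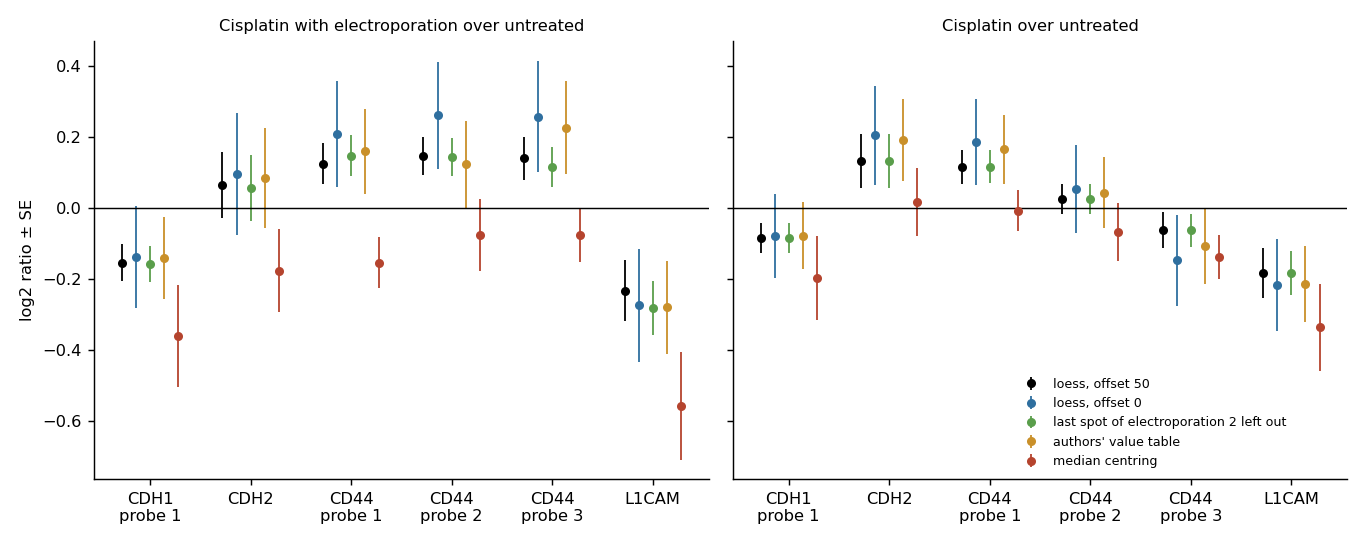
Log2 ratio of treated over untreated cells with its standard error (y axis) for the 6 probes above background under 5 ways of processing, for cisplatin with electroporation on the left and cisplatin on the right. L1CAM and CDH1 probe 1 stay below 0 under all 5, while CD44 with electroporation is positive under 4 and reads -0.15, -0.075 and -0.075 with median centring.

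Genes that work with these receptors were read from 7 lists on the brightest probe of each gene, and no measured member passed limma's test over all probes. Of 8 measured cadherins other than the members, 6 were above background and none had an unadjusted p under 0.05 (median log2 ratio -0.017 with electroporation, -0.027 with cisplatin). Medians below are given in the same order over all measured genes, including those not above background. Over all 2078 named genes they were -0.0088 with electroporation and -0.0025 with cisplatin, and over those above background -0.018 and -0.0072. Of these 2078 genes, 68 were higher and 168 lower at an unadjusted p under 0.05 by limma with electroporation. With cisplatin 118 were higher and 149 lower, and for the difference 31 and 52. Largest in size among the cadherins with electroporation were CDH17, the liver-intestine cadherin, at -0.14 (SE 0.070) and the desmosomal cadherin DSG3 at -0.053 (SE 0.060). With cisplatin they were CDH15, a muscle cadherin, at -0.15 (SE 0.071) and the protocadherin PCDH1 at 0.086 (SE 0.075). Of 5 catenin and plaque genes, which anchor cadherins to the cytoskeleton, none reached an unadjusted p under 0.05 (medians -0.0013 and 0.042). CTNNA2, a neural alpha-catenin, stood at -0.21 (SE 0.091) with electroporation and -0.14 (SE 0.075) with cisplatin, negative on 5 of 5 arrays, and on the second electroporation array at 0.0049 without the last listed spot. DSP, the desmosomal plaque protein desmoplakin, read 0.10 (SE 0.072) with electroporation, and CTNND2, a delta-catenin, read 0.11 (SE 0.045) with cisplatin.

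Of 5 measured genes of the cadherin switch, 2 were above background and VIM alone had an unadjusted p under 0.05 (medians 0.0024 and -0.048). Over the 2 above background the medians were -0.39 and -0.26. VIM, the intermediate filament vimentin of mesenchymal cells, read -0.29 and -0.40 on the electroporation arrays and -0.32, -0.042 and -0.29 on the cisplatin arrays. Its means were -0.34 (SE 0.077, limma adjusted p = 0.333) with electroporation and -0.22 (SE 0.063, adjusted p = 0.320) with cisplatin. ID3, an inhibitor of basic helix-loop-helix factors, stood at -0.43 (SE 0.18) with electroporation and -0.30 (SE 0.15) with cisplatin, with the outermost arrays at -0.68 with electroporation and -0.70 with cisplatin. SNAI1, a repressor of CDH1, was measured but not above background on every array.

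Of 11 immunoglobulin family receptors, 4 were above background, and 1 that was not, ICAM5, had an unadjusted p under 0.05 with electroporation (medians 0.012 and -0.016). CHL1, the close homologue of L1CAM, stood at -0.048 (SE 0.063) with electroporation, or -0.025 without the last listed spot of the second array, and at -0.077 (SE 0.051) with cisplatin. JAM2, a junctional receptor, read -0.031 (SE 0.064) with electroporation and 0.032 (SE 0.057) without that spot, and ICAM3, a leukocyte ligand, read -0.062 (SE 0.042) with cisplatin. Of 8 hyaluronan and CD44-linked genes, 2 were above background and none had an unadjusted p under 0.05 (medians -0.029 and 0.00955). The 2 were EZR, the linker ezrin, at 0.093 (SE 0.048) with electroporation and 0.053 (SE 0.039) with cisplatin, and the CD44 ligand SPP1 (osteopontin) at -0.025 (SE 0.046) with electroporation and -0.0049 (SE 0.038) with cisplatin. Of 7 proteases that can release receptor ectodomains, ADAM10 alone was above background, at -0.067 (SE 0.046) with electroporation and -0.024 (SE 0.038) with cisplatin (list medians 0.0078 and 0.036, none with an unadjusted p under 0.05). Of 10 partners of MCAM and L1CAM, 6 were above background, and LGALS3, the MCAM-binding lectin galectin-3, had an unadjusted p under 0.05 with electroporation (medians -0.0092 and -0.023). LGALS3 stood at -0.37 (SE 0.12, limma adjusted p = 0.443) with electroporation and at -0.11 (SE 0.098) with cisplatin. ITGB1, the integrin beta chain of many matrix receptors, read 0.0073 and -0.74 on the electroporation arrays, a range that held all cisplatin values but 1. ITGA5, the alpha chain of the fibronectin receptor, read 0.13 (SE 0.076) with cisplatin.

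Named genes with the most similar ratios were looked up by the root mean square difference of the 5 log2 ratios, over probes above background. Nearest to CDH1 probe 1 were LDB1, a LIM domain binding adaptor, at 0.034 and the acetyltransferase KAT2B at 0.036, where the median over 1245 probes was 0.18. Nearest to CDH2 were the coactivator SUB1 at 0.063 and the DNA fragmentation factor subunit DFFA at 0.066 (median 0.22). Nearest to CD44 probe 1 were GPRC5A, an orphan receptor, at 0.040 and the phospholipase PLA2G10 at 0.043 (median 0.20 over 1243 probes). Nearest to L1CAM were NFKB2, an NF-kB subunit, at 0.043 and the spindle checkpoint kinase TTK at 0.078 (median 0.26). These distances describe 5 arrays only and carry no test.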

How the data were processed

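Per the file headers, the deposited scanner files hold raw intensity values, as the foreground and local background of every spot in 2 channels, with no normalization. Neither headers nor labels name the scanner, its software, spot flags, scan dates or a genome build, so no slide block was run and no positions in the genome are printed. Channel 1 was read as Cy3 and channel 2 as Cy5, as numbered in the labels. The authors' deposited value table holds log2 ratios whose normalization is not stated. It followed channel 2 over channel 1 on every array (r between 0.58 and 0.78) and its column medians lay between -0.028 and 0.023, so direction and log scale were taken from this comparison. The table served as an alternative, on the 1281 probes with a value on every array.

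Probes were named through their listed gene identifiers: 2192 had 1 gene, none had several and the others had none. Median foregrounds were corrected with limma 3.58.1 (R 4.3.3; normexp, offset 50), normalized by loess (span 0.3) and averaged over spots. Levels per channel were taken after Aquantile normalization between arrays. Group means against 0 and their difference were tested in 1 limma fit over 5 arrays (3 residual and 2.47 prior degrees of freedom), two-sided, with Benjamini-Hochberg adjustment over 3048 probes. The procedure was tested on simulated data. All probes of the 5 genes are named; of each list, the 2 members above background with the largest absolute ratio per treatment. Genes and lists were chosen with earlier results of these data known. Alternatives covered background, normalization, dim probes, spots, the value table, a replicate block and each array left out; leaving out a deviating CD44 spot was added after seeing the data.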

Additional observations from a re-analysis of the deposited data

Results flagged for a closer look

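The untreated levels of the 8 probes over the 5 arrays were searched for a single array far from the others, and 2 were found; chance would give about 1 in 20 groups. CDH1 probe 2 had an untreated log2 level of 6.306 on the second electroporation array, against 5.83 to 5.94 on the others. Its last listed spot there read 244 and the other spots 13 to 16, and the level without that spot was 5.82. CD44 probe 3 had an untreated log2 level of 6.635 on the second cisplatin array, against 6.735 to 6.755 on the others. There the first listed spot read 25 and the others 66 to 89, and the level without it was 6.80. With 2 or 3 arrays, ratios within a treatment were not searched in this way.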

How the results depend on the processing

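No probe of the 5 genes passed the adjusted threshold under any alternative run. CDH1 probe 1 and L1CAM kept their negative sign against untreated cells under all 17 alternatives for both treatments. Several alternatives could not reverse it, since some change only the error estimate. Both probes also lay below 0 on 5 of 5 arrays with loess, so leaving out 1 array could not reverse them. Their median-centred values were -0.36 and -0.56 with electroporation and -0.20 and -0.34 with cisplatin. The lowest adjusted p of L1CAM was 0.084 with electroporation and 0.081 with cisplatin, both from limma's fit of single spots, which are not replicates. Of 303 alternative values of 18 ratios, 284 kept their direction and 19 reversed. The 284 include values that an alternative left equal to the main one by design. Median centring moved the median of all probes above background to -0.23 with electroporation and -0.11 with cisplatin, and relative to that median its reversals were undone except for the treatment difference of CD44 probe 1, at -0.034; the cause of the others was not tested. With it, electroporation over untreated read -0.18 for CDH2 and -0.15, -0.075 and -0.075 for CD44 probes 1 to 3, cisplatin over untreated read -0.0060 and -0.067 for CD44 probes 1 and 2, and electroporation over cisplatin read -0.15 and -0.0079 for them. CD44 probe 2 with cisplatin read -0.014 with the median of spots. The treatment difference of CD44 probe 1 was -0.0016 with no background correction and -0.0050 in the authors' deposited table. Leaving out 1 array gave -0.078 to 0.21 for CDH2 with electroporation and -0.011 to 0.077 for CD44 probe 2 with cisplatin. For the treatment difference it gave -0.21 to 0.077 for CDH2, -0.047 to 0.060 for CD44 probe 1 and -0.15 to 0.056 for L1CAM. Before that shift is taken off, ratios were above 0 in 6 of 30 pairs of probe and array with median centring, against 16 with loess; relative to the array median it was 17 against 16.

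Over all probes, where limma passed 0 in each comparison, electroporation over untreated gave 10 with no background correction, 35 with median centring, 11 among probes above background, 8 in the authors' deposited table, 91 with single spots and 0 to 93 with 1 array left out (93 without the first electroporation array, 1 without the third cisplatin array). Cisplatin over untreated gave 4 with no background correction, 1 in that table, 132 with single spots and 0 with any array left out. The treatment difference gave 3 with single spots and 0 to 47 with 1 array left out (47 without the first electroporation array). With the replicate number as a block, 0 probes passed in each comparison and L1CAM read -0.24 with electroporation; the labels do not say what a shared number means, and across probes same-numbered arrays correlated at 0.34 and 0.12, while the third cisplatin array correlated at -0.28 with the first electroporation array and 0.28 with the second. A block for slide or scan date was not run, since the files give neither. Low signal over background left MCAM and CDH1 probe 2 without a ratio, and CD44 stood at 3.14 to 7.23 times background in treated and 4.63 to 10.6 times in untreated cells.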
